A study of Mus musculus with 8 samples.

Results

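Semaphorins, plexins and neuropilins are a family of guidance ligands and their receptors. The members were all genes of the array annotation named Sema3 to Sema7 with a letter, Plxna to Plxnd with or without a number, and Nrp1 or Nrp2. This gave 31 of 18193 genes: 20 semaphorins, 9 plexins and 2 neuropilins. Each gene was read from its brightest probe set by mean intensity over the arrays. All 31 had a probe set, and all 31 met the requirement of an intensity above 19.4, the 40th percentile of all values, on at least 2 arrays. A gene high in 1 origin alone could pass in this way, and Sema6b passed only through the 2 arrays of p75-sorted cells.

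RNA came from E11.5 mouse embryos, control or mutant for FAK, focal adhesion kinase, which acts at integrin adhesions. There were 8 arrays, with 1 control and 1 mutant array in each of 4 origins. One origin was cranial neural crest sorted by p75, a neurotrophin receptor that these cells carry, and each of its arrays was a pool of 3 embryos. The other origins are named LM, OFT and UM in the labels, which do not spell them out. Nothing in the sources used here gives the FAK allele, any Cre driver, the genotype of the controls beyond that word, or the number of embryos behind an LM, OFT or UM array. With no replicate of an origin and genotype, the error term was the spread of the mutant-minus-control difference between origins. The limma model drew each gene's spread toward that of all tested genes, with 9.06 prior against 3 residual degrees of freedom. In comparisons of origins the control and mutant arrays served as the 2 arrays of an origin.

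Semaphorins bind plexins, whose intracellular part acts on small GTPases and through them on adhesion and the cytoskeleton. Class 3 semaphorins are secreted, and most need a neuropilin as co-receptor, whereas classes 4 to 7 are held at the membrane. In mouse embryos these signals steer axons, shape vessels and guide neural crest cells, and loss of Sema3c disturbs septation of the outflow tract of the heart.

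The arrays had been scaled to a common level, with a trimmed mean intensity of 150.001 on each. Ngfr, which encodes p75, had intensities of 1043 and 1422 on the control and mutant arrays of p75-sorted cells and 47.1 to 149 on the other 6. Sox10, a neural crest transcription factor, read 1512 and 1620 in p75-sorted cells and 25.3 to 57.5 elsewhere. For Gapdh, signal at the 3' end over that at the 5' end came to 2.82 on the p75 control array, 4.91 on the p75 mutant array and 0.7 to 0.986 on the others, and for Actb to 1.42 to 1.94 on all 8. The part of this RNA quality measure, and of sorting and pooling, in the p75 results was not tested. Ptk2, the gene of FAK, had 0 probe sets named in the annotation used, so the genotype labels were not checked against it.

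Members passed the test between origins, and none passed it between genotypes. By the mean of its control and mutant array, the highest origin was p75-sorted cells for 16 of 31 members, OFT for 9, LM for 4 and UM for 2. The same shares over all 13545 tested genes were 42.3%, 20.6%, 17.8% and 19.3%, against 51.6%, 29%, 12.9% and 6.45% of the members. Among the 9 plexins, none was highest in LM or UM, and 6 (66.7%) were lowest in LM, against 23.5% of all tested genes. This order carries no test, and no plexin passed between LM and UM. For Plxna1 the LM and UM means were close, at 7.385 and 7.392. Both neuropilins had their highest mean in OFT by the brightest probe set. By others the p75-sorted cells were highest: 1 probe set of Nrp1 read 992 and 1083 there against 672 and 529 in OFT, and 1 of Nrp2 read 260.4 and 334 against 223 and 155.

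**Figure D1:**
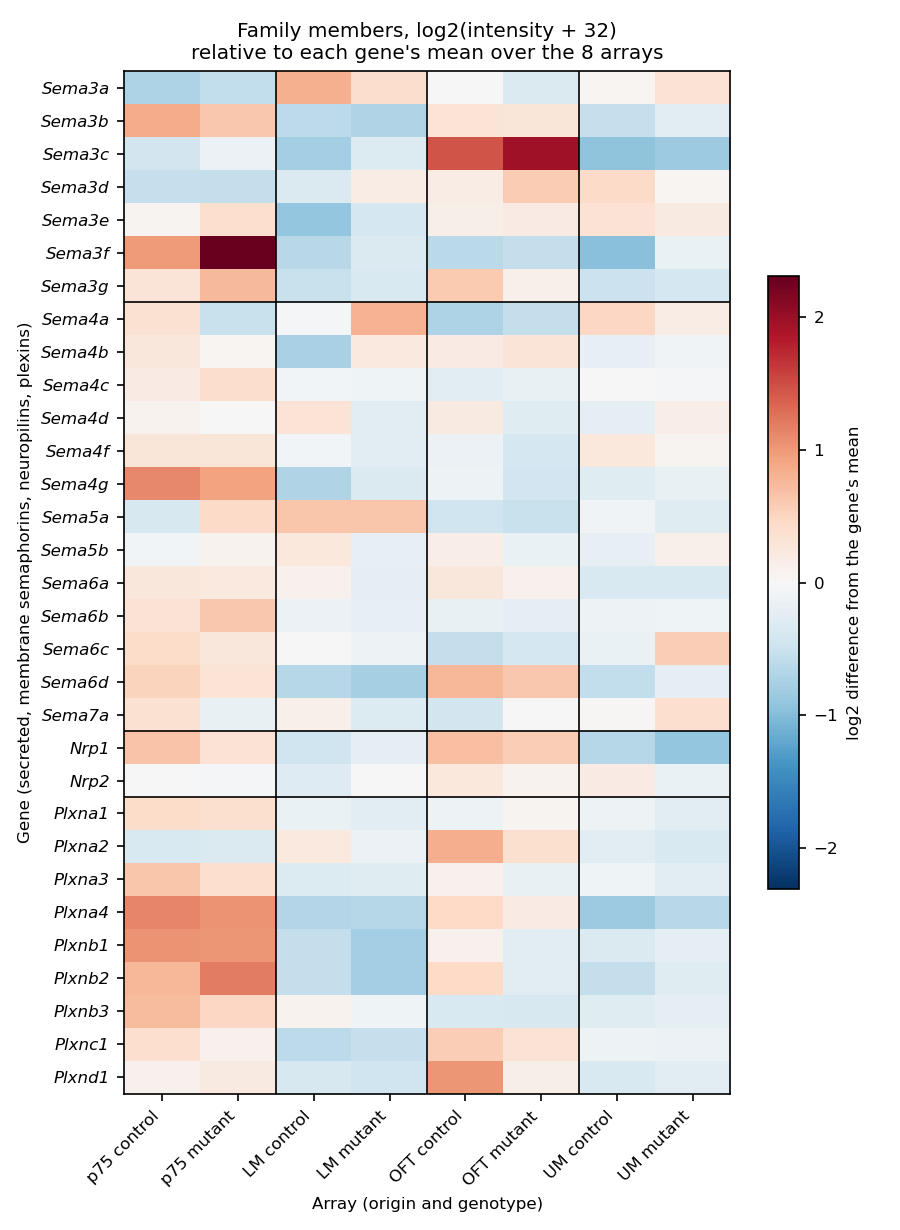
Each row is a member and each column an array, and colour gives log2(intensity + 32) minus the gene's mean over the 8 arrays, with red above and blue below. Sema3c stands out on both OFT arrays, and most plexin rows are red on both arrays of p75-sorted cells.

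OFT was compared with the mean of LM and UM to ask which members distinguish that origin. At an adjusted p under 0.05 (limma, Benjamini-Hochberg over all tested genes), 9 of 31 members were higher in OFT and 2 were lower. The 9 include Sema3b, which was tested only through arrays in which it is high. Over all tested genes 15.2% passed, 11.3% higher and 3.88% lower. The median difference of the members was 0.22 on the log2(intensity + 32) scale, against 0.02 for all tested genes. This scale understates the change of dim genes. Without the OFT control array the 11 called members became 3, namely Sema3c, Sema6d and Nrp1. Calls over all tested genes fell without that array too. In such bulk RNA, more cells of a type and more RNA per cell cannot be told apart.

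The largest difference in the family was that of Sema3c, a secreted ligand that signals through neuropilins with plexin-A2 and plexin-D1. Its intensity was 1070 and 1529 on the OFT control and mutant arrays, 200.4 and 287 on those of LM, 178 and 193 on those of UM, and 266 and 332 in p75-sorted cells. Both OFT arrays lay far above the other 6. OFT exceeded the mean of LM and UM by 2.43 ± 0.16 (log2 difference ± moderated SE, adjusted p = 5.73e-07), a 5.39-fold difference. The other probe set of Sema3c was also higher, by 1.24 (adjusted p = 0.000915). Against OFT, p75-sorted cells were lower by both probe sets, with log2 differences of -1.99 ± 0.18 (adjusted p = 1.17e-05) and -1.62 (adjusted p = 0.000171).

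The start of Sema3c is shown with that of Sema3a because the 2 ligands, which lie on the same chromosome, differed in the order of origins and in CG pairs. Among the 26 members with a promoter window, that of Sema3c has the most, and that of Sema3a, level with 1 window of Sema4d, the fewest. Plxna1, Plxna4, Sema3b, Sema3f and Sema6a had no window. The windows run from 250 bases before to 50 after a transcription start in RefSeq on GRCm38.p6. That of Sema3c is at chr5:17574566-17574865, plus strand, with 42 CG pairs and 75.7% G and C. That of Sema3a is at chr5:13396534-13396833, plus strand, with 2 CG pairs and 41.3% G and C, and it sits at an annotated start inside the gene. Capitals mark CG.
Sema3c: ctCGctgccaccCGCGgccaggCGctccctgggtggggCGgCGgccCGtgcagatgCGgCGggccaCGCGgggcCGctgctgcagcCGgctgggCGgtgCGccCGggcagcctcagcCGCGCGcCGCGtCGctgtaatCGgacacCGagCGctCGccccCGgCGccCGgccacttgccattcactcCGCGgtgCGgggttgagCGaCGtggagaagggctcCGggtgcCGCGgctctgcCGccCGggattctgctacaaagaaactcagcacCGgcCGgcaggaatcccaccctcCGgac
Sema3a: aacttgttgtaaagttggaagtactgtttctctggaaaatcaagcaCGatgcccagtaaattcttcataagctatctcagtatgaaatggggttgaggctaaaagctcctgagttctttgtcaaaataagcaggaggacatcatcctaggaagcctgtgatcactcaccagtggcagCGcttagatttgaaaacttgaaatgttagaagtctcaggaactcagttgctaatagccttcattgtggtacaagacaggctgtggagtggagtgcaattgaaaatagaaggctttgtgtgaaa
The median over 32851 promoter windows of the genome was 7 CG pairs, with quartiles of 3 and 20, and over the 37 windows of the 26 members listed it was 15.

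Sema3a, a secreted repellent of axons that acts through neuropilin-1, ran the other way. Its intensity was 615 and 453 in the LM control and mutant, 349 and 430 in UM, 336 and 261.5 in OFT, and 193 and 217 in p75-sorted cells. All 4 LM and UM arrays exceeded both OFT arrays, which in turn exceeded both p75 arrays. The OFT difference from LM and UM was -0.56 ± 0.18 (adjusted p = 0.0557) by the brightest probe set and passed the threshold by the other 2, at -0.71 (adjusted p = 0.0235) and -0.996 (adjusted p = 0.00172). In p75-sorted cells Sema3a was lower than in LM and UM, with a difference of -1.03 ± 0.18 (adjusted p = 0.000583), and its other probe sets were lower too, at -1.25 and -2.81.

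Among the other secreted ligands, Sema3b and Sema3g were also higher in OFT. Sema3b read 33.6 and 32 in OFT, 64 and 49.6 in p75-sorted cells, and 0.81 to 12.9 on the LM and UM arrays, where all 4 values lay below the 40th percentile, so that it was tested only through the arrays in which it is high. Its OFT difference was 0.81 ± 0.16 (adjusted p = 0.00476), a call lost without either OFT array. Sema3g, a neuropilin-2 ligand found in vessels, read 114 and 71.7 in OFT against 35.3 to 42.7 in LM and UM, a difference of 0.80 ± 0.19 (adjusted p = 0.0128). Sema3d, Sema3e and Sema3f did not pass, with values of 0.30, 0.35 and -0.06.

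Of the 13 membrane semaphorins, 1 was higher in OFT and 2 were lower. Sema6d, a transmembrane ligand of plexin-A1 known from heart morphogenesis in the chick, read 751 and 671 in OFT, 625 and 538 in p75-sorted cells, and 237 to 358.5 in LM and UM. The OFT and p75 arrays did not overlap the LM and UM arrays. The OFT difference was 1.25 ± 0.16 (adjusted p = 0.000244), but the other 2 tested probe sets of Sema6d gave -0.19 and 0.29, neither past the threshold.

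Sema5a, a membrane ligand with thrombospondin repeats, was lower in OFT. It read 287 and 274 there, 379 and 329 in UM and 647.4 and 646.7 in LM, so every LM and UM array exceeded both OFT arrays. The difference was -0.71 ± 0.20 (adjusted p = 0.0318), and all 3 other probe sets were lower too, at -0.86 to -0.61. Sema4a, a membrane ligand known from the immune system and the retina, read 12.9 and 18 in OFT and 39.8 to 95 in LM and UM. Both OFT values lay below the 40th percentile. Its difference was -0.98 ± 0.26 (adjusted p = 0.0253). Its probe set is of the x type, in which probes may also match other transcripts, and its other probe set gave -0.36 (adjusted p = 0.215). Both calls were also lost without the OFT mutant or without the UM control.

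The receptors higher in OFT were Nrp1 and 4 of the 9 plexins. Nrp1, a co-receptor for class 3 semaphorins and for VEGF, read 1235 and 1135 in OFT, 1210 and 951 in p75-sorted cells, 534 and 637.5 in LM, and 463 and 388.5 in UM. The OFT and p75 arrays overlapped each other, and all 4 lay above the LM and UM arrays. OFT differed from LM and UM by 1.20 ± 0.17 (adjusted p = 0.000339), and the 3 other probe sets gave 0.54 to 1.56, 2 of them past the threshold. Nrp2, the other neuropilin, read 522 and 463 in OFT and 351 to 503 in LM and UM, and its difference of 0.22 ± 0.17 did not pass (adjusted p = 0.41).

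Plxna2 and Plxnd1 encode plexins that bind complexes of Sema3c and a neuropilin, and plexin-D1 is known from endothelium. Plxna2 read 444 and 312 in OFT, 280 and 213 in LM, 193 and 177 in UM, and 178 and 182 in p75-sorted cells. Both OFT arrays were above all the others. The difference from LM and UM was 0.73 ± 0.16 (adjusted p = 0.00921), and that of p75-sorted cells from OFT was -0.94 ± 0.19 (adjusted p = 0.00256). All 3 other probe sets of Plxna2 were lower in p75-sorted cells than in OFT, at -0.99 to -0.72. Plxnd1 read 376 in the OFT control, 189 in the OFT mutant, 114.5 to 137 in LM and UM, and 183.5 and 202 in p75-sorted cells. The OFT control stood alone, and the OFT mutant lay between the p75 arrays. The OFT difference of Plxnd1 was 0.94 ± 0.21 (adjusted p = 0.00865) and 0.47 without the OFT control (adjusted p = 0.372).

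The starts of these 2 receptors are shown because both were higher in OFT and both windows hold GATAA, the core bound by GATA factors, which was searched on both strands. That of Plxna2 is at chr1:194619579-194619878 on the plus strand, with GATAA at -53 to -49 from the start. That of Plxnd1 is at chr6:115994956-115995255 on the minus strand, with GATAA at -197 to -193. Capitals mark GATAA.
Plxna2: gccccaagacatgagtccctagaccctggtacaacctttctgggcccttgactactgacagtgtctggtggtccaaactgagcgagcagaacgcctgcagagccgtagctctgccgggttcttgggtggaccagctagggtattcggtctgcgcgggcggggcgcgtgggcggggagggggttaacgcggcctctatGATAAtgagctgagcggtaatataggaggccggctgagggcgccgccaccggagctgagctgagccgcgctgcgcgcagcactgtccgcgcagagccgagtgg
Plxnd1: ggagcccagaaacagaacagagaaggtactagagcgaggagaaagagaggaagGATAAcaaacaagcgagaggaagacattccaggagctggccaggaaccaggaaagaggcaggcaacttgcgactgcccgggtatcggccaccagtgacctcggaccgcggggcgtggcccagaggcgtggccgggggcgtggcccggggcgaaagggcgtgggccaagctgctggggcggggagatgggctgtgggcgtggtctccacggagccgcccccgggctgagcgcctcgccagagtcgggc
The letters were in 25.4% of all promoter windows and in 4 of 37 member windows, those of Plxna2, Plxnd1, Sema4d and Sema6d. The window of Sema3c had no match. TAATTA, bound by homeodomain factors, was in 5.29% of all windows and 0 of the 37, and TATAAA was in 13.6% and 0. CACCTG, an E-box, was in 20.2% and 5, and CCAAT in 37.4% and 7. A match describes the letters and is no measured binding site.

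Plxna4 and Plxnc1 completed the plexins higher in OFT. Plxna4, a receptor subunit for Sema3a and class 6 semaphorins in neurons, read 120 and 94.7 in OFT and 29.8 to 39 in LM and UM, a difference of 1.02 ± 0.16 (adjusted p = 0.000809). Plxnc1, the receptor of Sema7a, read 157 and 128 against 52.5 to 85.2, a difference of 0.80 ± 0.16 (adjusted p = 0.00408). Other probe sets of both gave smaller differences that did not pass, 0.15 for Plxna4 and -0.001 to 0.40 for Plxnc1. Of the 5 remaining plexins, Plxnb2 came nearest at 0.64 ± 0.21 (adjusted p = 0.0638), and Plxna1, Plxna3, Plxnb1 and Plxnb3 gave 0.16, 0.19, 0.39 and -0.23.

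Markers of other cell types moved with OFT. Higher there than in LM and UM were 6 of 7 cardiac muscle markers, 4 of 4 smooth muscle markers, 5 of 8 endothelial markers, 6 of 9 neuronal markers and 2 of 5 tested macrophage markers. Summed intensities of the endothelial list were 1932 and 1627 in OFT against 992 to 1125 in LM and UM, and those of the neuronal list were 5261 and 3475 against 640 to 1930. The cardiac sums were 11960 and 13480 against 44 to 176. None of the defining markers of these lists was at 0 in OFT, where Pecam1 read 227 and 229 and Myl7 3664 and 4517. Other lists were mixed, with 2 of 6 tested neural crest markers higher in OFT and 2 lower, and 2 of 5 lower jaw markers higher and 3 lower. The lower jaw markers that were higher were Hand1 and Hand2, and those lower were Dlx3, Dlx5 and Dlx6. Among epithelial markers 1 of 6 was higher and 2 were lower. One list each gave a single call, 1 of 4 skeletal muscle markers higher and 1 of 3 tested erythroid markers lower. That skeletal muscle marker was Actc1, at 4.68, while Myod1, Myf5 and Myog did not pass, at 0.10, 0.09 and 0.67. The part of all these markers in the OFT results was not tested.

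**Figure D2:**
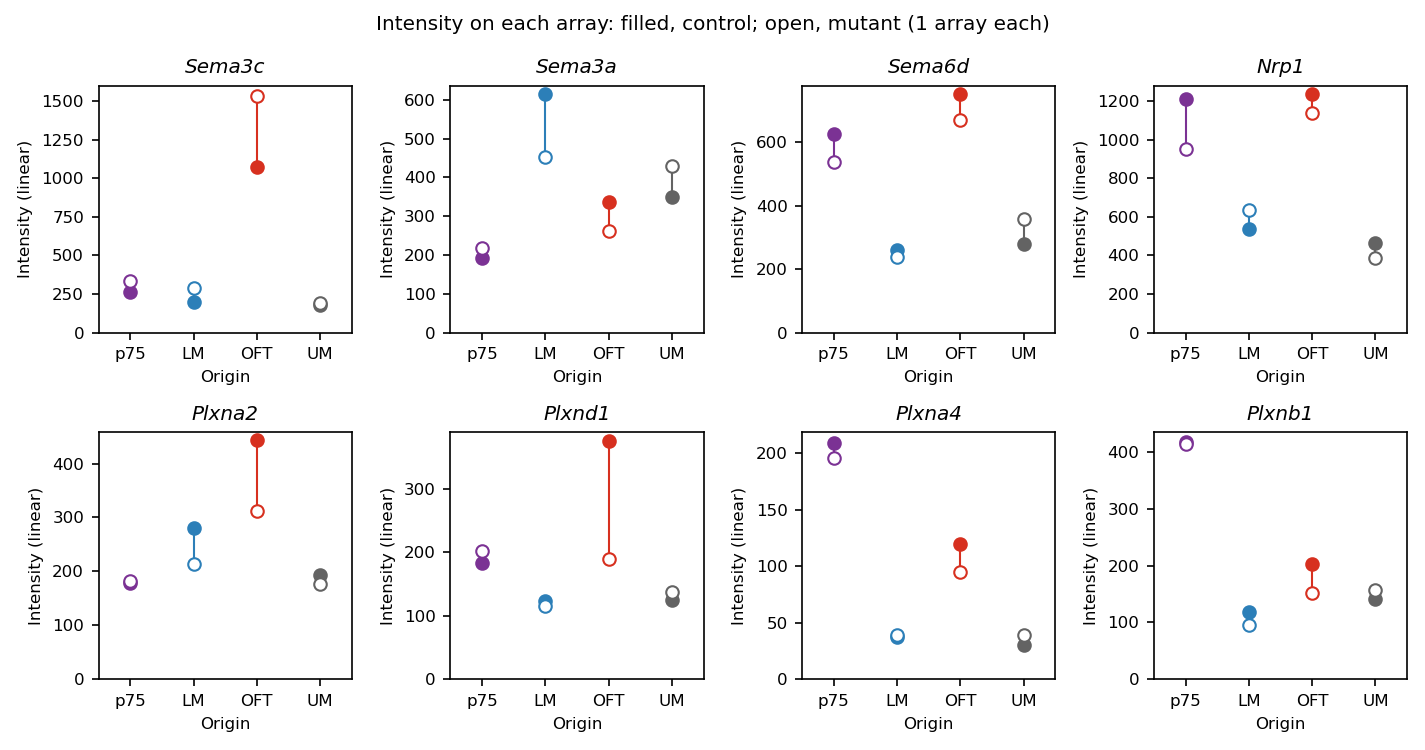
Linear intensity of 8 members on each array, by origin, with filled circles for control, open circles for mutant and a line joining the pair; every axis starts at 0. Sema3c reads 1070 and 1529 in OFT and at most 332 elsewhere, and the OFT control of Plxnd1 stands apart from its mutant.

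Between LM and UM, 1 of 31 members passed, lower in LM. Of all tested genes 1.56% passed, 0.738% higher in LM and 0.819% lower. That member was Sema3e, a secreted ligand that binds plexin-D1 without a neuropilin. It read 1.45 and 14.8 in LM, both below the 40th percentile, and 46.4 and 39.6 in UM. The difference was -0.92 ± 0.19 (adjusted p = 0.0353). The call was lost under 12 of 18 other settings, among them leaving out any array but the LM mutant, and the other 2 tested probe sets gave -0.66 and -0.24, neither past the threshold. Sema5a had the next lowest unadjusted p, with a difference of 0.82 ± 0.23 (adjusted p = 0.154). Differences of the 9 plexins ran from -0.44 to 0.35. Higher in LM were 4 of 4 skeletal muscle and 4 of 5 lower jaw markers, and lower were 3 of 9 neuronal and 2 of 6 epithelial markers, and their part in the Sema3e result was not tested.

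In p75-sorted cells most plexins were higher. Against the mean of LM and UM, 16 of 31 members were higher and 2 lower, where 48.1% of all tested genes passed, 29.4% higher and 18.7% lower. The median of the members was 0.45 and that of all tested genes 0.09. By the brightest probe sets, higher were 7 of 9 plexins, 1 of 2 neuropilins, 4 of 7 class 3 semaphorins and 4 of 13 membrane semaphorins. These counts include Sema3b and Sema6b, which were tested only through arrays in which they are high. The plexins had a median of 0.73. This comparison shares the LM and UM arrays with that of OFT.

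Plxna4, Plxnb1 and Plxnb2 differed most among the plexins. Plxna4 read 209 and 196 in p75-sorted cells, above both OFT arrays and all LM and UM arrays, and its difference from LM and UM was 1.78 ± 0.16 (adjusted p = 5.06e-06). Plxnb1, the receptor of Sema4d, read 419 and 415 in p75-sorted cells, 203 and 152 in OFT, and 96.3 to 158 in LM and UM. Its difference was 1.499 ± 0.16 (adjusted p = 1.9e-05), and its other probe set was higher by 0.80. Plxnb2, a receptor of class 4 semaphorins that also serves in neural tube closure in mice, read 701 and 936 against 218 to 320, a difference of 1.51 ± 0.21 (adjusted p = 0.00014). In each of these 3 genes the p75 arrays lay above the other 6.

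The remaining plexins higher in p75-sorted cells had smaller differences. Plxna3, a receptor for Sema3f, differed by 0.75 and Plxnb3, a receptor of Sema5a, by 0.73, and Plxna1 and Plxnc1 differed by 0.59 each. The second probe set of Plxna3 gave -0.31 and did not pass. Plxnb3 read 70.3 and 53.5 in p75-sorted cells and 18.7 to 32.9 in LM and UM, close to the floor. Plxnd1 and Plxna2 did not pass, at 0.52 ± 0.21 (adjusted p = 0.0557) and -0.21 ± 0.16. Nrp1 was higher by 1.06 ± 0.17 (adjusted p = 0.000279) and Nrp2 gave 0.03 ± 0.17 by its brightest probe set. For Nrp2, 2 other probe sets were higher in p75-sorted cells, by 0.92 (adjusted p = 0.00118) and 0.60 (adjusted p = 0.00826), and the last gave -0.35. The call of Plxna1 was lost without either p75 array, and that of Plxnc1 without the p75 control.

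Semaphorins went both ways in p75-sorted cells. Sema4g, a membrane semaphorin, read 242 and 207 in p75-sorted cells against 45.9 to 80.8 in LM and UM and 83.9 and 61.1 in OFT, and was higher than LM and UM by 1.39 ± 0.17 (adjusted p = 5.75e-05). Sema3b, Sema3g and Sema6d were higher by 1.26, 0.97 and 0.97. Sema6b read 19.4 and 30.9 in p75-sorted cells and 2.99 to 6.26 on all other arrays, so it was tested only through the arrays in which it is high, and its difference of 0.61 describes that choice and supports nothing. Besides Sema3a, Sema3d was lower, at 112 and 110 against 134 to 253, a difference of -0.63 ± 0.19 (adjusted p = 0.0175). The other tested probe set of Sema3d gave -0.37 and did not pass (adjusted p = 0.0885). Sema3d is a secreted semaphorin known for guiding endothelial cells. Its call was lost without either p75 array or the UM control, and those of Sema3g and Sema6b without the p75 mutant.

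For several semaphorins the result depended on the probe set. Sema6a, a transmembrane ligand of plexin-A2 and plexin-A4, was higher by 0.45 with its brightest probe set and lower with its other 2, at -0.55 and -0.64, all 3 past the threshold. One other probe set of Sema6d was lower, at -0.73 (adjusted p = 0.0148). Sema3c was higher by 0.44 (adjusted p = 0.036) with its brightest probe set and gave -0.38 with the other, and its call was lost under 9 of 18 other settings. Sema5a did not pass with its brightest probe set, at -0.19, and was lower with the other 3, at -1.01 to -0.78. For Sema5b the brightest probe set gave 0.02 and the dimmer 1.54 (adjusted p = 0.000153).

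Sema3f, a secreted neuropilin-2 ligand that repels neural crest cells, had the largest value of the family in p75-sorted cells, but with 1 of 3 probe sets. Its brightest probe set read 480 and 1258 on the p75 control and mutant arrays and 101 to 201 on the others, a difference from LM and UM of 2.17 ± 0.22 (adjusted p = 1.48e-05). That probe set is of the x type. The other 2 gave 0.02 and 0.24 against LM and UM, and 0.19 and 0.54 against OFT, and none of these passed. Of the members, 3 of 31 were read from an x type probe set (9.68%), against 4.23% of tested genes.

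**Figure D3:**
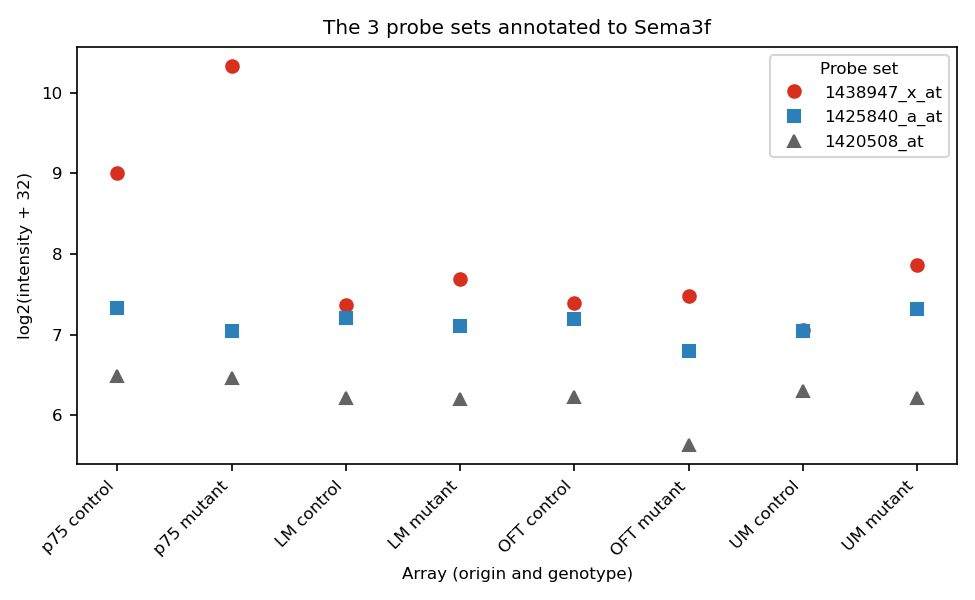
log2(intensity + 32) of the 3 probe sets annotated to Sema3f on each array. The brightest, of the x type, is high on both p75 arrays and highest on the p75 mutant, while the other 2 vary little.

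Set directly against OFT, p75-sorted cells were higher in 11 of 31 members and lower in 3, where 34.6% of all tested genes passed, 19.2% higher and 15.4% lower. The 3 lower members were Sema3c, Plxna2 and Sema3d, the last at -0.93 ± 0.22 (adjusted p = 0.00732). The other tested probe set of Sema3d gave -0.155 and did not pass (adjusted p = 0.574). All of the B plexins were higher: Plxnb1 by 1.11, Plxnb3 by 0.97 and Plxnb2 by 0.87. Plxnb3 is dim, at 70.3 and 53.5 in p75-sorted cells. In OFT it read 16.2 and 15.55, both below the 40th percentile. Plxna4 and Plxna3 followed at 0.76 and 0.56. Their other probe sets gave 0.457 and -0.131, neither past the threshold. Among the ligands Sema4g was higher by 1.30 ± 0.20 (adjusted p = 0.000496), Sema6c by 0.82, Sema4f by 0.54 and Sema4c by 0.51, and Sema3f by 2.23 with its x type probe set. The 11 include Sema6b at 0.68, which was tested only through its p75 arrays. Nrp1 and Nrp2 gave -0.14 and -0.19 by their brightest probe sets and did not pass, while another probe set of each was higher in p75-sorted cells, by 0.77 for Nrp1 (adjusted p = 0.00956) and 0.58 for Nrp2 (adjusted p = 0.0487). For Plxnc1 the brightest gave -0.20, and another was higher by 0.60 (adjusted p = 0.0289). In 6 semaphorins too, the brightest did not pass and another probe set did. It was lower for Sema3a at -1.815, Sema3e at -0.876 and Sema6a at -0.692, and higher for Sema5b at 1.23 and Sema4a at 0.586. For Sema6d 1 was higher at 0.598 and 1 lower at -1.02. The 14 called members became 7 without the p75 mutant, 7 without the OFT mutant and 9 without the OFT control. Calls over all tested genes fell in these settings too. Sema3c, Plxna2, Plxnb1, Plxnb3 and Sema4g passed whichever array was left out.

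Markers moved with the sort as well. Against LM and UM, p75-sorted cells were higher in 9 of 9 neuronal markers and in 5 of 6 tested neural crest markers, and lower in 6 of 8 endothelial and 6 of 6 epithelial markers. Also higher were 5 of 7 cardiac, 3 of 4 skeletal muscle and 2 of 4 smooth muscle markers, and lower were 3 of 3 tested erythroid, 3 of 5 tested macrophage and 3 of 5 lower jaw markers. The neuronal sums were 6958 and 4046 in p75-sorted cells and the endothelial sums 347 and 348. Of the endothelial list Pecam1 was near 0 there, at 2.24 and 1.46. Against OFT, lower were 8 of 8 endothelial, 6 of 7 cardiac, 4 of 4 smooth muscle, 5 of 5 tested macrophage and 4 of 6 epithelial markers. Also lower were 1 of 3 tested erythroid and 2 of 5 lower jaw markers. Higher were 5 of 6 tested neural crest, 4 of 9 neuronal and 2 of 4 skeletal muscle markers. Each of these 3 lists also had 1 marker lower, Ets1 at -0.69, Isl1 at -1.317 and Actc1 at -1.715. The cardiac sums were 367.6 and 367.8 in p75-sorted cells, against 11960 and 13480 in OFT. The part of these markers' cell types in the p75 results was not tested.

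**Figure D4:**
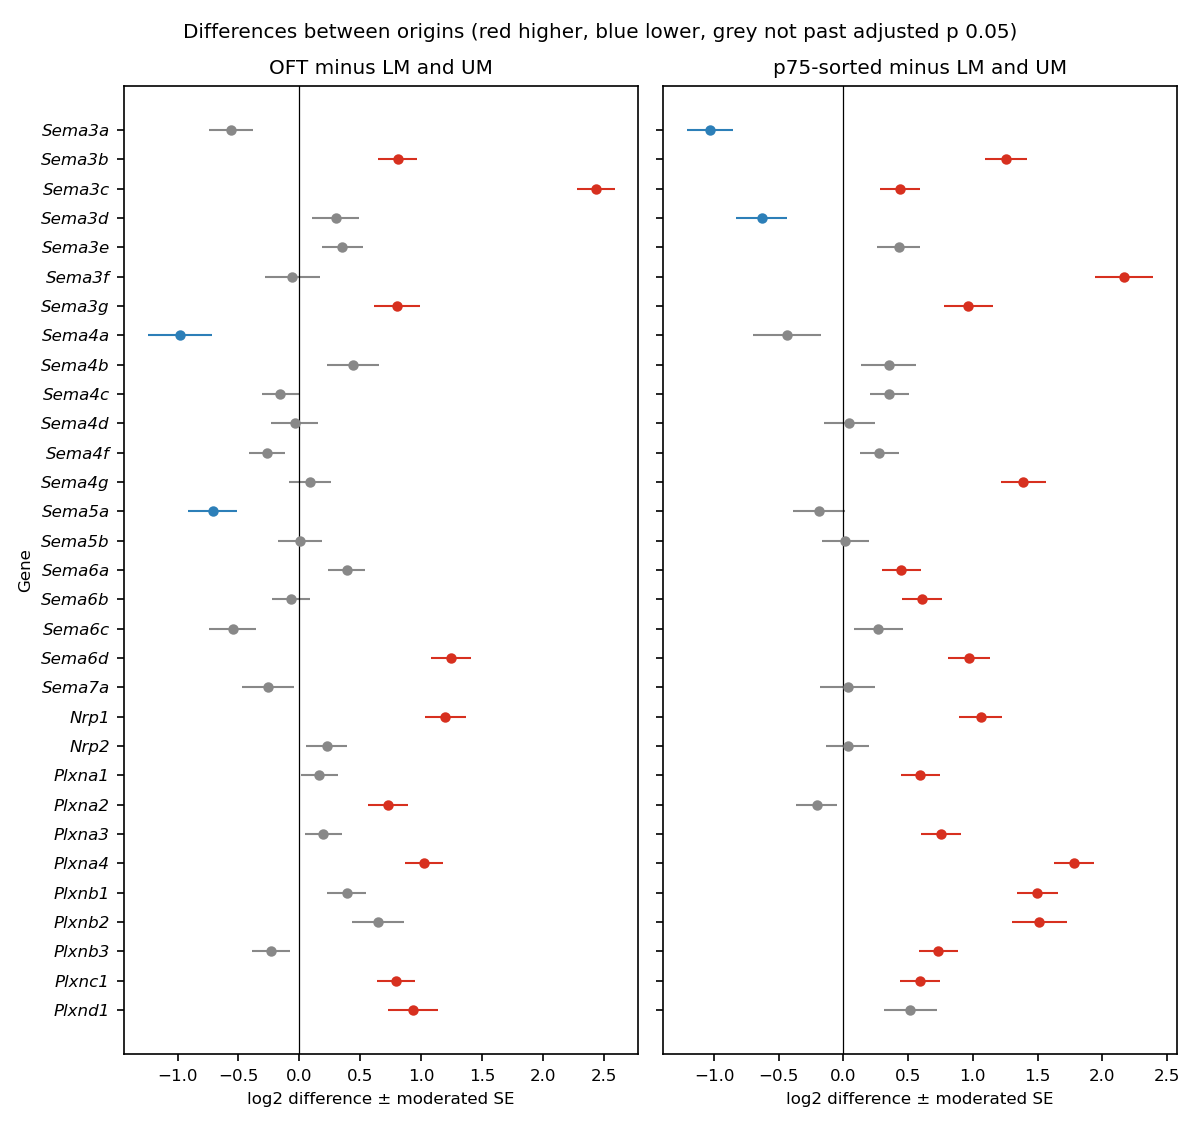
Points are log2 differences of each member, OFT minus the mean of LM and UM on the left and p75-sorted cells minus the same mean on the right, with bars of 1 moderated SE; red and blue are higher and lower at an adjusted p under 0.05, and both panels share the LM and UM arrays. Sema3c has the largest value on the left at 2.43, and plexins make up 7 of the 16 higher members on the right.

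Genotype was tested over the 4 pairs to ask whether the family differed between FAK mutants and controls, and no member passed. Called were 0 of 31 members and 0% of tested genes by limma, and at an unadjusted p under 0.05 there were 2 members and 410 of 13545 genes. The smallest adjusted p among the members was 1. Without the LM pair 1 gene passed in all, and it was no member. A p that misses the threshold does not show that levels were alike. The members' genotype differences ran from -0.22 to 0.64.

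The 2 members with an unadjusted p under 0.05 were Sema3c and Sema3f. Sema3c was higher in the mutant array of all 4 pairs, by 0.50 in OFT, 0.46 in LM, 0.10 in UM and 0.29 in p75-sorted cells. Its mean difference was 0.34 ± 0.13 (unadjusted p = 0.0211, adjusted p = 1), and its other probe set gave 0.27 ± 0.16. Sema3f gave 0.64 ± 0.18 (unadjusted p = 0.00443, adjusted p = 1), with 1.33 in p75-sorted cells and 0.81 in UM. Its other 2 probe sets gave -0.18 and -0.12. Sema4f and Sema6a also kept 1 sign in all 4 pairs, both lower in the mutant, which makes 4 of 31 members against 1243 of 13545 genes.

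No receptor passed by genotype, and the sign depended on the probe set. By the brightest probe sets the 9 plexins gave mean differences from -0.22 to -0.03, with a median of -0.12 against -0.01 for all tested genes. Of 10 other tested plexin probe sets 7 were above 0, in 5 of the genes: Plxna2, Plxna3, Plxnb1, Plxnb3 and Plxnc1. Nrp1 gave -0.11 ± 0.14 and Nrp2 -0.06 ± 0.14. Over the same pairs all 9 neuronal markers were below 0, with a median of -0.29 and Nefl lowest at -0.67. Their sum nevertheless rose in LM, from 640 in the control to 1176 in the mutant. All 4 skeletal muscle markers were above 0, with a median of 0.51, as were all 3 tested erythroid markers. Of the endothelial markers 6 of 8 were below 0, and lists of the other cell types went both ways. No marker passed the threshold, and the part of these lists in the receptor values was not tested. Of all tested genes 54.5% lay below 0, and of the 31 members 67.7%. Of the 7 class 3 semaphorins 5 lay above 0. In no plexin did all 4 pairs have the same sign by the brightest probe set.

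The OFT pair held the 2 largest plexin differences. There 8 of 9 plexins were lower in the mutant, where 57.1% of all tested genes were lower. Plxnd1 read 376 in the control and 189 in the mutant, a difference of -0.88, Plxnb2 560 and 326, a difference of -0.73, and Plxna2 444 and 312, a difference of -0.47. With 1 array per genotype these are differences between a pair of arrays and carry no test. In the same pair the endothelial sum was 1932 in the control and 1627 in the mutant and the neuronal sum 5261 and 3475, and their part in these differences was not tested. In UM, 4 of 9 plexins (44.4%) were lower in the mutant, near the 43.3% of all tested genes.

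Single pairs held other differences of size. In p75-sorted cells Sema5a, at 308 and 562, was higher in the mutant by 0.80, and Sema4a, at 61.2 and 19.2, was lower, at -0.87. In LM the mutant was higher by 0.97 for Sema4b, at 18.7 and 67.1, and by 0.82 for Sema4a. The p75 pair of Sema3f was the only member and pair to differ by at least 1 on the log2 scale.

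**Figure D5:**
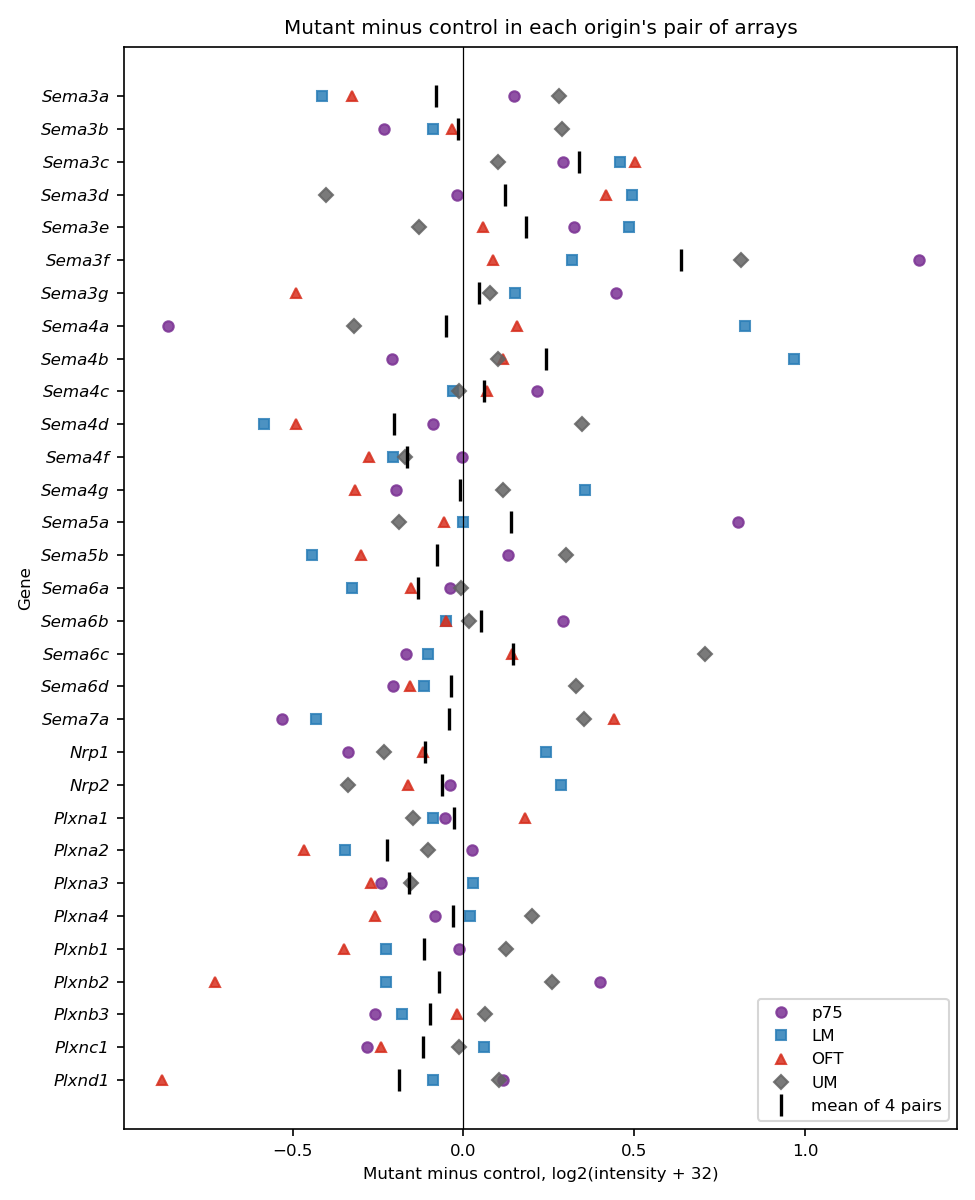
Each row is a member, and each symbol is the mutant-minus-control difference in log2(intensity + 32) of 1 origin's pair, with a bar at the mean of the 4 pairs. Symbols lie on both sides of 0 for most members; Sema3c has all 4 above 0, and the OFT symbols of Plxnd1 and Plxnb2 lie farthest left among the plexins.

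Partners of the pathway were listed as 53 genes, among them co-receptors, VEGF ligands and receptors that share neuropilins, and intracellular partners of plexins. Of these 52 had a probe set and 50 were tested. By genotype none was called. In OFT 15 were higher than in LM and UM and 0 lower, where 15.2% of all tested genes passed, 11.3% higher and 3.88% lower. The largest values were those of Dpysl3, a collapsin response mediator, at 2.03 ± 0.16, Itga1, an integrin subunit, at 1.59 ± 0.15, Rras, a GTPase that plexins act on, at 1.03 ± 0.17, and Flt1, a VEGF receptor, at 0.84 ± 0.20. Between LM and UM 1 passed, Dpysl3, lower in LM at -0.82 ± 0.18 (adjusted p = 0.044), where 1.56% of all tested genes passed.

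In p75-sorted cells 22 of 50 tested partners were higher than in LM and UM and 8 lower. Of all tested genes 48.1% passed, 29.4% higher and 18.7% lower. Crmp1, a mediator of Sema3a signals in the growth cone, differed by 3.42 ± 0.21, at 1814 and 1384 against 108 to 128. L1cam, an adhesion protein and co-receptor of neuropilin-1, differed by 3.19 ± 0.17, Dpysl3 by 2.64 ± 0.16 and Chl1, a relative of L1cam, by 2.43 ± 0.18. Against OFT 13 were higher and 13 lower, where 34.6% of all tested genes passed, 19.2% higher and 15.4% lower. The largest were Crmp1 at 2.70 ± 0.24, L1cam at 2.42 ± 0.20, Chl1 at 2.19 ± 0.21 and Ranbp9, a scaffold protein, at -1.67 ± 0.23. The neuronal marker sums given above were higher in p75-sorted cells than in LM and UM, and the endothelial sums were lower. In OFT both sums were higher than in LM and UM. Their part in the partner results was not tested.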

How the data were processed

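The authors deposited a linear intensity for each of 45101 probe sets on 8 arrays. How the intensities were computed is not given in the sources. Leaving out values under percentile 2 and over percentile 98, each array averaged 150.001, so no further scaling was applied. Intensities were turned into log2(intensity + 32), on which an intensity of 0 is 5. The platform annotation named 1 gene for 34945 probe sets and several for 932, and 9160 were not listed. The brightest probe set stood for each of 18193 genes, and 13545 passed the filter on low values.

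One limma model (version 3.58.1, R 4.3.3, lmFit and eBayes, 3 residual degrees of freedom, prior 9.06) had a term per origin and 1 for genotype, with p-values adjusted by Benjamini-Hochberg over all tested genes. Other probe sets of a member were fitted in the same model over all probe sets that named 1 gene and passed the filter. The code was tested on simulated data. The members, lists and tests were chosen with earlier results of these data known. The text names every member and up to 4 partners per comparison with the largest change past the threshold. Pairs come from the origin label, and control and mutant deviations from the genotype means correlated at 0.878 (p75), 0.618 (LM), 0.791 (OFT) and 0.667 (UM). Alternatives changed the pseudocount, filter, probe set rule, normalization, variance prior, model terms and arrays. Promoter windows are those of RefSeq on GRCm38.p6, and no coordinates of probe sets were used. The number of arrays limits the precision.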

Additional observations from a re-analysis of the deposited data

Results flagged for a closer look

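In 1 of 31 members a single pair stood away from the other 3. The mutant-minus-control difference of Sema6d was 0.33 in UM and -0.21 to -0.12 in the other origins, so that the gap took 0.834 of the whole range, above Dixon's 95% critical value for 4 values. Chance alone puts about 1 in 20 groups above that value. With 1 pair per origin, whether the genotype difference of Sema6d differs between origins was not tested.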

How the results depend on the processing

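Of 44 member differences past the threshold, 18 stayed past it under every alternative run. Sema3c, Sema6d and Nrp1 in OFT were among them, under 19 settings each. Of 111 that had not passed, 19 passed under some setting, and 106 of their 1901 values changed sign. The number of called members in OFT fell from 11 to 6 with a pseudocount of 1 and ran from 3 to 14 when 1 array was left out. For p75-sorted cells against OFT it fell from 14 to 9 with a pseudocount of 1 and ran from 7 to 14 when 1 array was left out, and against LM and UM it ran from 13 to 19. Between LM and UM it was 0 with a pseudocount of 1 or 64, without a filter, with a 60th percentile filter, with the mean of probe sets and without the p75 pair, and 0 to 1 when 1 array was left out. For genotype it was 0 throughout. Over all genes a pseudocount of 1 gave 999 calls for OFT against 2060, 64 for LM against UM against 211, and 2845 for p75-sorted cells against OFT against 4693. When 1 array was left out these ran from 624 to 2145, 110 to 223 and 1817 to 5035, and for p75-sorted cells against LM and UM from 3654 to 6287 against 6514. Sema6a in p75-sorted cells turned from 0.45 to -0.033 with the mean of its probe sets, whose dimmer members were lower. Both Sema3f calls were lost without x type probe sets, at 0.02 and 0.19, an alternative chosen after seeing the data. The cause of the other changes was not tested. Each origin and genotype rests on 1 array, and members near the 40th percentile, such as Sema3e, Sema6b, Sema3b, Sema4a and Plxnb3, are read close to the floor.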
